A study of Mus musculus with 2 samples.

Results

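Ionocyte-like microvillous cells of the mouse olfactory epithelium were 119 of 8298 kept cells (1.43%), 43 of 3032 in library 1 and 76 of 5266 in library 2. They were selected on measured values: at least 3 UMIs (unique molecular identifiers, each standing for 1 captured transcript) of Ascl3, Cftr and Foxi1 together with at least 2 of these genes detected. Cyp2g1 and Cyp2a5 had to be under 1% of a cell's UMIs, and Gap43 and Omp together at most 3 UMIs. Kept cells are barcodes that reached 1000 UMIs and 500 detected genes while mitochondrial genes gave no more than 10% of their UMIs. The levels of these 7 genes are therefore a description of the choice, and no weight rests on them.

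The cells came from 1 male C57BL/6 mouse whose nostril was closed on one side at postnatal day 14 (unilateral naris occlusion), with tissue taken at postnatal day 28. The closed and the open side gave 1 library each, from frozen dissociated cells after removal of dead cells, so the animal is the only one and neither side has a replicate. Nothing in the sources used here ties barcode suffix 1 or 2 to a side. The suffixes are kept as library 1 and library 2, no side is assigned to either, and no test between them was possible. Intervals are exact 95% intervals, Poisson for levels and binomial for shares, and cover counting error only.

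Microvillous cells are non-neuronal cells of this epithelium that carry apical microvilli in place of olfactory cilia. One class holds the cation channel Trpm5 and resembles tuft cells, and another holds Ascl3, a basic helix-loop-helix factor, with Cftr, a chloride channel. Foxi1, a forkhead factor, is known to turn on ion transport genes in ionocytes, the mitochondria-rich transport cells of the kidney collecting duct, the inner ear and the airway.

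Library 1 held 4501 barcodes with 27212821 UMIs and library 2 held 7990 with 49221001, of which members held 335121 and 784598 UMIs. Kept cells had medians of 5528 and 5139.5 UMIs in libraries 1 and 2, and members 5245 and 6653.5, with a range from 1224 to 39808. Of the barcode sequences, 12 occurred in both libraries, 6 of them among kept cells and none among members. Ascl3 was detected in 115 members, Foxi1 in 116, Cftr in 88 and all 3 genes in 81, and the 3 genes summed to between 3 and 43 UMIs a cell with a median of 11. At the threshold, 10 members held 3 or 4 UMIs of the trio, and 7 of these had Coch, with a median of 9.5 Coch UMIs. Just outside it were 21 cells, 5 with 2 UMIs of 2 genes and 16 with 3 or more of 1 gene, of which 2 had a single Coch UMI.

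Genes outside the rule went with the label. Coch, which encodes the secreted matrix protein cochlin and is best known from the inner ear, was at 4986 CPM (4750.0 to 5231) in library 1 and 2651 CPM (2538 to 2767) in library 2, against 33 and 39 CPM in the other kept cells (CPM, UMIs of a gene per 1000000 UMIs of the group). Over members it ran from 0 to 323 UMIs per 10000, with a median of 33.4. Markers of the tuft-like class were low: 17 of them summed to 191 and 309.7 CPM in members of libraries 1 and 2, against 2045 in other kept cells, and 34 members held 3 or more of these UMIs. Trpm5 had a UMI in 4 members, Il25 and Pou2f3 in 2 each, Avil in 1 and Chat in none. Npy, a peptide described in microvillous cells of this tissue, had no UMI in 119 members, which with a limit of 3 counts allows a share of cells with a UMI of up to 2.52%.

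Most barcodes that met the Ascl3, Cftr and Foxi1 rule lay above the mitochondrial limit. Among barcodes with enough UMIs and genes, the rule was met by 481, and 362 of them held more than 10% mitochondrial UMIs (75.3%, 71.2 to 79.1). The split was alike in both libraries, with 117 of 160 above the limit in library 1 (73.1%) and 245 of 321 in library 2 (76.3%). Of all other barcodes, 24.5% were above it, and by marker type 46.2% of sustentacular-type cells (Cyp2g1 and Cyp2a5 at 1% or more of UMIs), 22.2% of Trpm5-type cells and 5.53% of mature olfactory sensory neuron (OSN) type cells. The median mitochondrial share was 12.3% and 12.6% where the rule was met and 6.73% and 6.69% elsewhere. The 119 members are the rule-met barcodes at or under the limit.

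**Figure D1:**
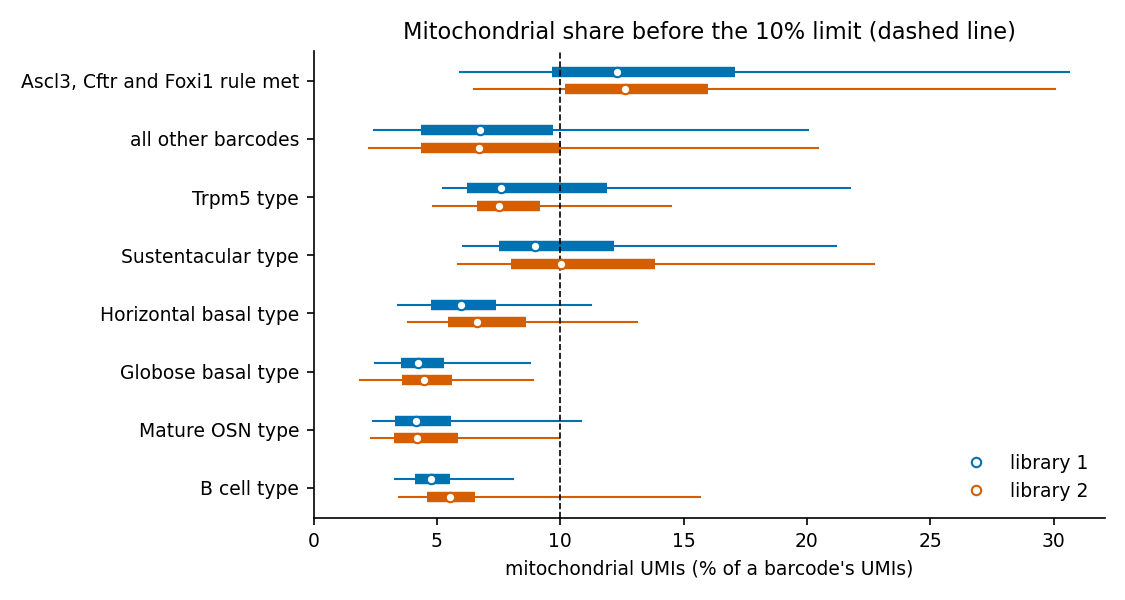
Mitochondrial UMIs as a percentage of a barcode's UMIs, for barcodes that met the Ascl3, Cftr and Foxi1 rule and for other cell types, before the limit of 10% (dashed line); circles are medians, thick bars the middle quartiles, thin lines the 5th to 95th percentile, colours the libraries. The rule-met barcodes have medians of 12.3% and 12.6%, above the line in both libraries, while the mature OSN type has 4.15% and 4.18%.

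Coch and Stap1 were higher in the excluded barcodes than in the members, and part of the gap went with depth. Coch was detected in 353 of the 362 and stood at 11479.8 CPM (11168 to 11798) in library 1 and 9673 CPM (9482 to 9868) in library 2. In CPM of nuclear-gene UMIs, which leaves the mitochondrial share out of the scale, Coch was at 3614 in members, 11814 in 211 barcodes with 10 to 15% mitochondrial UMIs, 10793 in 72 with 15 to 20% and 15959 in 79 with over 20%. For Stap1, an adaptor gene described below, the values were 1186, 3214, 2849 and 2813. Members were lowest for both genes. In the 79 members of at most 8000 UMIs, Coch was at 8968 and 5304 CPM in libraries 1 and 2, nearer to the excluded barcodes, of which 15 were deeper than that. The share of cells without Coch differed as well. No Coch UMI was held by 17 of these 79 members and by 6 of the 347 excluded barcodes of at most 8000 UMIs. The part of each in the gap was not tested. Median depth moved too, from 5813 UMIs in members to 3934, 4109.5 and 1800 in the 3 bands, and the barcodes over 20% held a median of 858 genes against 2342. Why the mitochondrial share was high, in cells from which dead cells had been depleted, was not tested. The results that follow are for the 119 members, in most cases with the value for the 362 excluded barcodes or for all 481 beside it. That extension was chosen after the data had been seen.

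Which other genes set members apart was asked against all other kept cells, with a gene called higher or lower where the ratio was 2-fold or more the same way in both libraries. Of 10387 genes with 10 CPM or more on either side, 485 were called higher (4.67%) and 817 lower (7.87%), and the median log2 ratio of all of them was 0.04. Of 20 ionocyte and microvillous marker genes outside the rule, 16 reached 10 CPM, 15 were called higher and none lower, with a median log2 ratio of 4.66. Since the members were chosen on genes that go with these markers, the list describes the cells and is no separate evidence. Without the mitochondrial limit, 712 of 10367 genes were called higher (6.87%) and 1193 lower (11.5%), and 14 of the 16 markers were called higher, with a median of 5.18.

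The log2 ratios of the 25 leading genes over other kept cells ran from 4.09 to 7.19, all 25 were also called higher without the mitochondrial limit, and 24 stood higher in the excluded barcodes than in members of both libraries. Against members of at most 8000 UMIs, 19 of the 25 did. Stap1, an adaptor protein of tyrosine kinase signalling, was at 1444 and 952 CPM in members of libraries 1 and 2, 14.8 and 16.2 CPM in the other kept cells and 2619.5 and 2604 CPM in the excluded barcodes. Pam, the enzyme that amidates secreted peptides, was at 1949 and 1278 CPM in members of libraries 1 and 2, 34.7 and 32.2 CPM in the other kept cells and 3749 and 3264 CPM in the excluded barcodes. Both genes were named for large ratios called in both libraries, so the separation of these library sums goes with that choice. Moxd1, a monooxygenase of the dopamine beta-hydroxylase family, was at 531 and 328 CPM in members of libraries 1 and 2, 5.35 and 5.67 CPM in the other kept cells and 1154 and 1046 CPM in the excluded barcodes. Galnt13, an enzyme that starts O-linked glycosylation, was at 451 and 321 CPM in members of libraries 1 and 2, 2.75 and 3.33 CPM in the other kept cells and 1087 and 898 CPM in the excluded barcodes. Hepacam2, an immunoglobulin-family adhesion protein, was at 418 and 224 CPM in members of libraries 1 and 2, 7.11 and 6.23 CPM in the other kept cells and 957 and 783 CPM in the excluded barcodes. Members lay between the other kept cells and the excluded barcodes for all 3 genes. Cspg5, a chondroitin sulfate proteoglycan, was at 534 and 298 CPM in members of libraries 1 and 2, 8.24 and 6.75 CPM in the other kept cells and 1246 and 989 CPM in the excluded barcodes. Rcan2, a regulator of calcineurin, was at 140.2 and 152 CPM in members of libraries 1 and 2, 2.46 and 2.42 CPM in the other kept cells and 379 and 318 CPM in the excluded barcodes. Gng4, a G protein gamma subunit, was at 149 and 119.8 CPM in members of libraries 1 and 2, 3.08 and 2.02 CPM in the other kept cells and 235 and 253 CPM in the excluded barcodes. These were detected in 79.8%, 67.2% and 68.1% of members. Muc20, a membrane mucin, was at 188 and 124 CPM against 7.01 and 7.71 CPM, and Asgr1, a subunit of the asialoglycoprotein receptor, at 86.5 and 54.8 CPM against 2.94 and 2.77 CPM. Rnase1, a secreted ribonuclease, was at 221 and 111 CPM against 2.18 and 3.01 CPM, and 3 cells held 40.5% and 39.1% of its UMIs in members of each library. Smbd1, Nrip3, Prr18, 4930469K13Rik, 2610016A17Rik and 1810063I02Rik completed the 25 with the channel and factor genes described below. Smbd1 had the largest ratio in both libraries, at 719 and 399 CPM against 1.94 and 2.66 CPM.

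**Figure D2:**
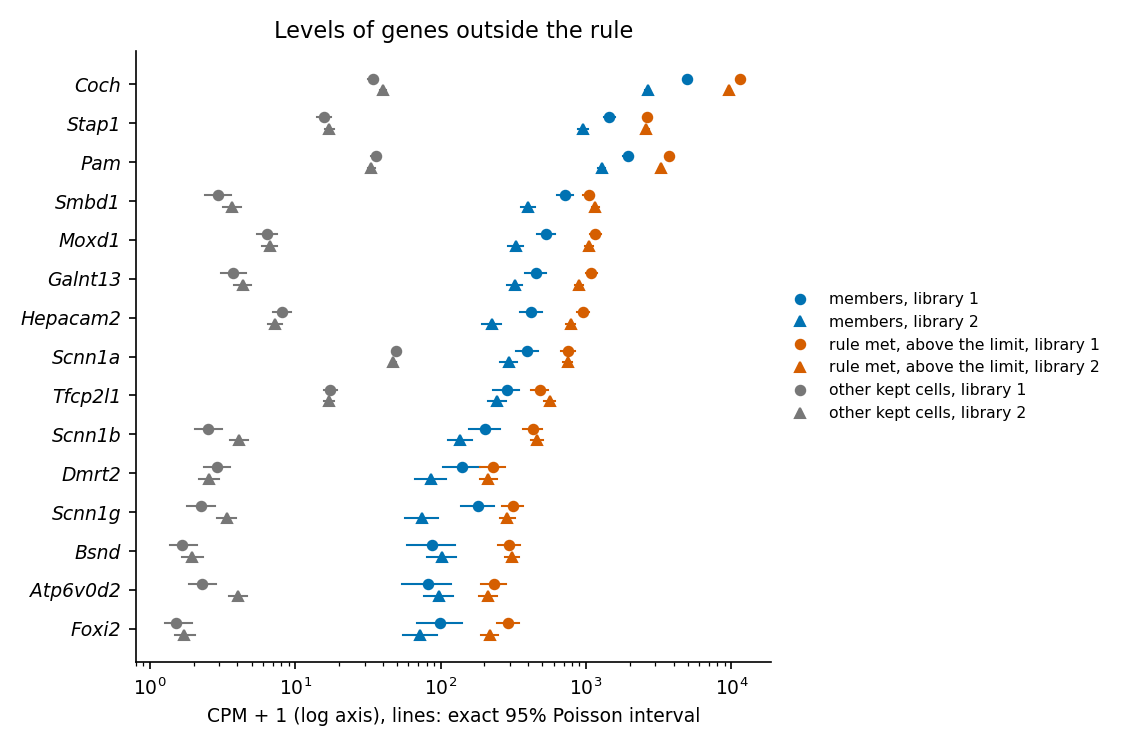
Levels of 15 genes outside the rule, as CPM + 1 on a log axis, in members, in rule-met barcodes above the mitochondrial limit and in other kept cells; circles are library 1, triangles library 2, and lines exact 95% Poisson intervals. For Coch the members sit at 4986 and 2651 CPM, between the other kept cells at 33 and 39 and the barcodes above the limit at 11479.8 and 9673.

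Detection was compared at equal depth, after each cell had been thinned to 2000 UMIs, which left out 2 members. Coch was then found in 72.6% (63.6 to 80.5) of 117 members, 96.7% (94 to 98.4) of 302 excluded barcodes, 5.8% (4.67 to 7.11) of mature OSN-type, 1.67% (1.14 to 2.37) of sustentacular-type and 3.74% (1.03 to 9.3) of B cell-type cells. Stap1 was found in 82.1% (73.9 to 88.5) of members, 0.8% (0.414 to 1.39) of mature OSN-type cells and 12.1% (6.63 to 19.9) of B cell-type cells, a lineage that is known to express it. Both genes were far above the share seen in cell types that should lack them. For Scnn1b the shares were 24.8% (17.3 to 33.6) of members, 54.6% (48.8 to 60.3) of excluded barcodes and 0.133% (0.0162 to 0.481) of mature OSN-type cells. Before thinning, members had 79.8% for Coch, 93.3% for Stap1 and 47.1% for Scnn1b, and median depths were 5813 UMIs in members, 5223 in mature OSN-type, 6350 in sustentacular-type and 1501 in B cell-type cells.

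Sodium entry genes stood out among the transporters. All 3 subunits of the epithelial sodium channel were called higher: Scnn1a, the alpha subunit, was at 391 CPM (327 to 464) in library 1 and 292 CPM (255 to 332) in library 2, against 48.7 and 46.4 CPM in other kept cells. Scnn1b, the beta subunit, was at 199.9 CPM (155 to 254) in library 1 and 135 CPM (111 to 163) in library 2, against 1.52 and 3.09 CPM. Scnn1g, the gamma subunit, was at 179 CPM (137 to 230.5) in library 1 and 73.9 CPM (56.1 to 95.6) in library 2, against 1.23 and 2.36 CPM. Their intervals lay apart from those of other cells, which goes largely with the call. The excluded barcodes were higher again, at 753 and 748 CPM for the alpha, 428 and 457 CPM for the beta and 314 and 286 CPM for the gamma subunit. Of 18 measured genes for sodium, potassium and water transport, 4 were called higher and 1 lower, against 4.67% and 7.87% of all genes. The fourth higher gene was Kcnma1, the pore of the large-conductance calcium-activated potassium channel, at 182 and 148 CPM against 42.4 and 40.3 CPM. Atp1b1, the beta subunit of the sodium pump, had log2 ratios of 0.47 and 0.33 in libraries 1 and 2, under 2-fold. The aquaporin water channels Aqp3, Aqp4 and Aqp5 were not called in members but were called lower without the limit, with log2 ratios of -1.83, -1.48 and -1.59. Kcnq1, a potassium channel, was called higher there (1.15), which made 5 of 18 higher and 4 lower. Among members of at most 8000 UMIs 4 were higher and 7 lower, the 3 aquaporins and the potassium channel genes Kcnj15, Kcnj16 and Kcnn4 among them. Over all genes, 757 were called higher and 1520 lower in that set, against 485 and 817 in all members. List counts in that set, here and below, are to be read beside this rise, and their share of all measured genes is not given here.

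Chloride genes followed. Bsnd, an accessory subunit of chloride channels known from kidney and inner ear, was at 86.5 CPM (58 to 124) in library 1 and 101 CPM (79.7 to 125) in library 2, against 0.663 and 0.941 CPM in other kept cells. It was higher in members of each library, with log2 ratios of 5.72 and 5.71 in libraries 1 and 2. Slc12a2, the sodium-potassium-chloride cotransporter that loads chloride into secretory cells, was at 997 and 793 CPM against 178 and 194 CPM. Of 13 measured chloride and bicarbonate genes 3 were called higher, Bsnd and Slc12a2 among them, against 4.67% of all genes. Slc4a4, a sodium-bicarbonate cotransporter, was called lower at 11.9 and 6.37 CPM against 49.3 and 40 CPM, as were 7.87% of all genes. Slc26a4 and Slc4a9, the anion exchangers of kidney intercalated cells, stayed under 10 CPM on both sides. Without the limit the same 3 genes were higher and Slc26a7, an anion exchanger, joined Slc4a4 as lower (-1.85). In members of at most 8000 UMIs 4 of 14 were higher and 3 lower, Slc4a4, Slc26a7 and the chloride channel gene Ano1. Of 4 measured carbonic anhydrases, Car8, which lacks the enzyme activity of the family, was higher at 38.8 and 22.9 CPM against 4.55 and 3.6 CPM, and Car2 and Car11 were lower. Car2 was at 2.98 and 15.3 CPM against 61.6 and 39.2 CPM. The Car8 call was lost in members of at most 8000 UMIs, at 18.9 and 0 CPM, where none of 3 measured genes was higher and Car2, Car11 and Car12 were lower.

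The V-ATPase, the proton pump that marks many ionocytes, was raised in some subunits only. Of 11 measured subunits of its V1 part, 2 were called higher and none lower, and of 15 measured V0 subunits and accessory proteins, 3 were higher and 1 lower, with list medians of 0.60 and 0.44 on the log2 scale. Over all genes, 4.67% were called higher and 7.87% lower. Atp6v0d2, a tissue-restricted form of the V0 d subunit, was at 80.6 CPM (53.1 to 117) in library 1 and 96.9 CPM (76.3 to 121) in library 2, against 1.28 and 3.04 CPM in other kept cells. Atp6v0b, a subunit of the membrane ring, was at 1146 and 807 CPM against 300.3 and 291 CPM. Atp6ap2, an accessory protein also known as the prorenin receptor, was at 609 and 419 CPM against 149.8 and 136 CPM. All 3 were called higher, so higher levels in members of both libraries follow from the call. The stalk subunits Atp6v1d and Atp6v1e1 had log2 ratios of 1.68 and 1.25 and of 1.06 and 1.06. Atp6v1b1 and Atp6v0a4, the forms of kidney intercalated cells, were not higher, at 56.7 and 47.2 CPM against 50.2 and 46.5 CPM and at 62.7 and 51 CPM against 69.8 and 67.9 CPM, and without the limit Atp6v0a4 was called lower (-1.23). Atp6v1a, the catalytic A subunit, Atp6v1h and Atp6v0a2 passed 2-fold in both libraries without the limit, with log2 ratios of 1.27, 1.26 and 1.09, which made 4 of 11 and 4 of 15 higher. With members over 8000 UMIs left out, 3 of 11 and 4 of 15 were higher, and Atp6v1b1 and Atp6v0a4 were lower.

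**Figure D3:**
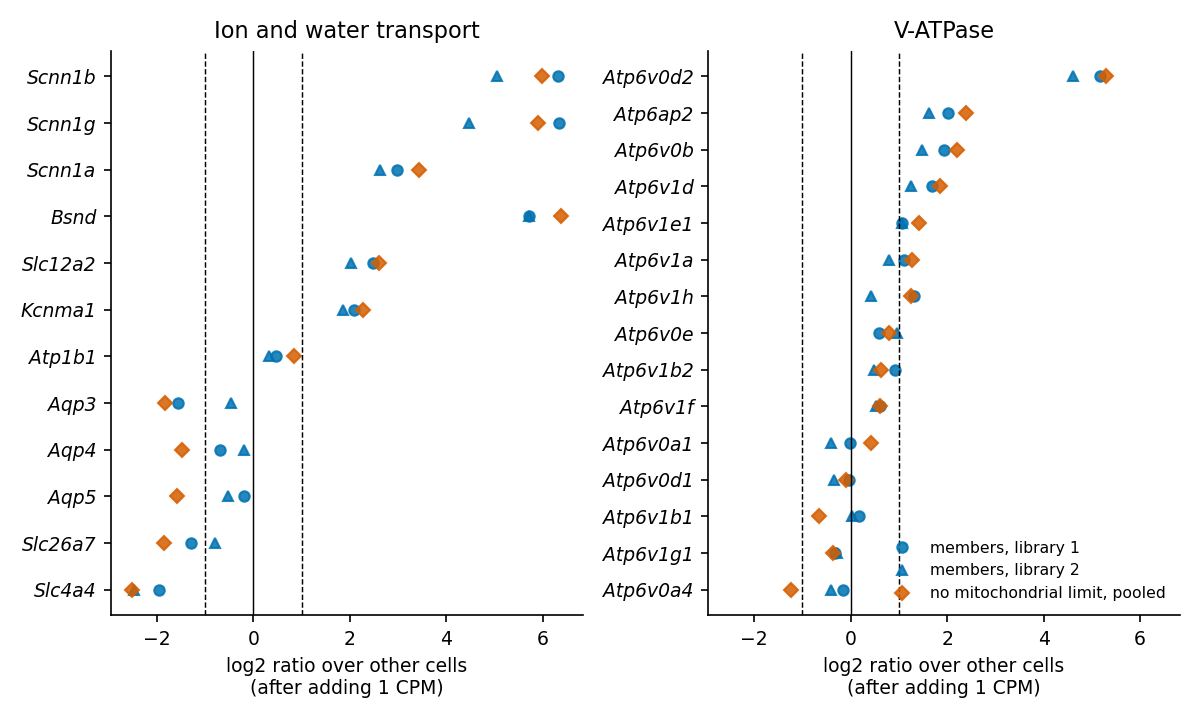
Log2 ratio of members over other kept cells, after adding 1 CPM, for ion and water transport genes (left) and V-ATPase genes (right); circles are library 1, triangles library 2, diamonds all 481 rule-met barcodes without the mitochondrial limit, and dashed lines mark 2-fold. Sodium channel genes reach 6.33 for Scnn1g in library 1, while among V-ATPase genes Atp6v0d2 stands apart at 5.16 and 4.60.

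Of 26 measured nuclear genes of mitochondrial energy supply, 1 was called higher and 1 lower, against 4.67% and 7.87% of all genes, with a median log2 ratio of 0.23 in members and 0.44 without the limit. Ldha, a lactate dehydrogenase chain, was higher at 421 and 368 CPM against 163 and 161 CPM, and Ckb, the brain form of creatine kinase, lower at 107 and 94.3 CPM against 483 and 371 CPM. Cox8b, a cytochrome c oxidase subunit known from heart, skeletal muscle and brown fat, was at 421 and 189 CPM in members, 19.2 and 25.8 CPM in other kept cells and 892 and 921 CPM in the excluded barcodes. Its common counterpart Cox8a was at 2396 and 2196 CPM against 1511 and 1502 CPM. Cox8b is not on the list and was noticed through its pattern among the members.

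Among transcription factors of epithelial fate, 6 of 26 measured genes were called higher and 2 lower, against 4.67% and 7.87% of all genes. Foxi2, a second forkhead factor of the Foxi family, was at 98.5 CPM (67.8 to 138) in library 1 and 71.4 CPM (53.9 to 92.7) in library 2, against 0.521 and 0.726 CPM in other kept cells. Dmrt2, a DM-domain factor, was at 140.2 CPM (103 to 186) in library 1 and 84.1 CPM (65.1 to 107) in library 2, against 1.89 and 1.53 CPM. Tfcp2l1, a factor of kidney collecting duct and exocrine ducts, was at 283 CPM (229 to 347) in library 1 and 245 CPM (211 to 282) in library 2, against 16.4 and 16 CPM. Each was called higher, and intervals above the levels of other kept cells go largely with the call. Esrrg, a nuclear receptor that drives energy metabolism genes in other tissues, was at 47.7 and 30.6 CPM against 1.33 and 1.32 CPM. Dll1, a Notch ligand, and Elf3, an epithelial ETS factor, had log2 ratios of 2.03 and 1.51 and of 1.04 and 1.63. The receptors Notch2 and Notch3 were lower, with -1.58 and -1.14 and with -1.32 and -1.30. Without the limit 8 of 26 were higher, with Ppargc1a (1.93) and Esrra (1.30), known partners in mitochondrial gene control, added, and 7 were lower, among them Hey1, a Notch target (-1.95), and the ligand Jag1 (-1.32). With members over 8000 UMIs left out, 7 were higher and 5 lower.

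Signalling genes on the calcium store and purine list were higher in 6 of 16 measured cases and lower in none. For this list and the next, the shares of all genes were 4.67% higher and 7.87% lower. Itpr3, the inositol trisphosphate receptor known from microvillous cells, was at 98.5 CPM (67.8 to 138) in library 1 and 63.7 CPM (47.3 to 84) in library 2, against 8.48 and 9.7 CPM. Plcg2, a phospholipase that makes its ligand, was at 86.5 and 79 CPM against 5.54 and 8.87 CPM, and Stim1, the calcium sensor of the store, at 107 and 80.3 CPM against 20.8 and 20.5 CPM. P2ry14, a receptor for UDP-glucose, was at 164 and 116 CPM against 12.4 and 8.98 CPM, and Nt5e, the ectoenzyme that forms adenosine, at 92.5 and 73.9 CPM against 4.26 and 4.49 CPM. On the cAMP and kinase list 3 of 18 were higher and 2 lower. The adenylyl cyclases Adcy1 and Adcy5 were at 32.8 and 39.5 CPM and at 32.8 and 21.7 CPM, against 1.8 and 1.85 CPM and 1.42 and 1.26 CPM, while Adcy3, the cyclase of olfactory cilia, was at 8.95 and 6.37 CPM against 115 and 72.7 CPM. Wnk4, a kinase that controls chloride cotransport, was at 29.8 and 15.3 CPM against 1.8 and 2.28 CPM. Without the limit 6 of 19 were higher, with Stk39, a kinase downstream of Wnk4 (1.82), among them, and 4 lower. Among members of at most 8000 UMIs the calcium and purine list had 6 of 17 higher and 2 lower, Plcb4 and P2ry6, and the cAMP list 6 of 19 higher and 2 lower.

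Of 20 measured brush border and cytoskeleton genes, 3 were higher and none lower. For this list and the next 2, the shares of all genes were 4.67% higher and 7.87% lower. Krt7, a simple-epithelium keratin, was at 218 and 185 CPM against 25.6 and 21.8 CPM, and Eps8, an actin regulator of microvilli, at 59.7 and 63.7 CPM against 12.1 and 12.3 CPM. Without the limit 4 were higher and Lcp1, an actin bundler of leukocytes, was lower. In members of at most 8000 UMIs 4 were higher and 3 lower, Lcp1, Krt19 and Pls1. The share of all genes called in that set is not given here. Of 13 measured secreted peptides and growth factors, 2 were higher and 4 lower. Fgf10, a fibroblast growth factor, was at 29.8 and 24.2 CPM against 0.379 and 0.779 CPM, and Bmp4, a bone morphogenetic protein, at 23.9 and 15.3 CPM against 3.13 and 2.47 CPM. Cxcl12, Igfbp4, Igfbp2 and Il33 were the lower ones. Npy stayed at 0 in all 481 rule-met barcodes, which with the limit of 3 counts allows a share with a UMI of up to 0.624%. Of 16 immediate early and stress genes none was higher, and Nqo1, a quinone reductase, and Ddit3, a stress factor, were lower.

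The genes most depleted in members included genes of other cells of the mucosa, some of which the rule leaves out. The 10 lowest ratios among genes at 200 CPM or more in other kept cells ran from -7.30 to -6.19 on the log2 scale, and all 10 were also called lower without the limit. They included the odorant-binding protein gene Obp1b at 0 and 11.5 CPM against 2320.2 and 913 CPM, the collagen genes Col1a1 and Col1a2 with the matrix gene Sparc, and the OSN genes Stoml3, S100a5 and Calb2. Gm14743, Mup5 and Gpx6 were the others. Each was seen in at most 10.1% of members. Since the rule leaves out cells rich in Omp or Gap43, low levels of the OSN genes are set in part by that choice.

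Some of the strongest genes lie beside each other in the genome. Among the 25 genes and the 3 genes of the rule, 4 pairs were less than 100000 bases apart (GENCODE M21, GRCm38): Scnn1b and Scnn1g on chromosome 7, Ascl3 and Nrip3 on chromosome 7, Smbd1 and Muc20 on chromosome 16, and Dmrt2 and 2610016A17Rik on chromosome 19. The gaps were 96562, 26328, 7324 and 157 bases, and no pair overlapped. The last pair starts in opposite directions from 1 shared stretch, and its genes were both raised, at 140.2 and 84.1 CPM and at 137 and 108 CPM in members. The sources used here do not say whether counting used the strand.

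Promoters of the 25 genes and the rule genes, 250 bases before to 50 after each start, came from RefSeq (GRCm38.p6), where 22 of 28 genes had an entry. The forkhead core TGTTTAC, searched on both strands, was in 1 of these genes, and it was in 21 of 482 promoters of genes called higher (4.36%, 2.72 to 6.58), against 1199 of 32851 promoters in all (3.65%). The background lay within the interval. A variant core, TGTTTGC, was in 7.68% of promoters of genes called higher (5.46 to 10.4) against 5.07% of all, and in 4.99% for genes called higher in members of at most 8000 UMIs. Shown are Coch, which had the largest ratio after Smbd1 over both libraries, Dmrt2, whose window covers the start region shared with 2610016A17Rik, and Muc20, the only one with the core, which stands in capitals and reads on the opposite strand.
Coch promoter, chr12:51593091-51593390, plus strand: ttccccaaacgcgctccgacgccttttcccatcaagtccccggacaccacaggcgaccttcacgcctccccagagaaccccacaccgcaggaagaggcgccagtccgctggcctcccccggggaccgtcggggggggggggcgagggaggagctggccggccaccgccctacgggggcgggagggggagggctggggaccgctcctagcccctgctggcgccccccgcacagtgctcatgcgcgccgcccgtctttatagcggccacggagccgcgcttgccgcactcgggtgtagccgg
Dmrt2 promoter, chr19:25672161-25672460, plus strand: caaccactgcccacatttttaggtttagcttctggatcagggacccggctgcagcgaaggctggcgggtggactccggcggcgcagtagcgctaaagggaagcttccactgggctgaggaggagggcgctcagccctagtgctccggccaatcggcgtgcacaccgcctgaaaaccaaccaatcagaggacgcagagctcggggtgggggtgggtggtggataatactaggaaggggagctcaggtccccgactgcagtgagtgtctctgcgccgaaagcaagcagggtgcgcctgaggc
Muc20 promoter, chr16:32797386-32797685, minus strand: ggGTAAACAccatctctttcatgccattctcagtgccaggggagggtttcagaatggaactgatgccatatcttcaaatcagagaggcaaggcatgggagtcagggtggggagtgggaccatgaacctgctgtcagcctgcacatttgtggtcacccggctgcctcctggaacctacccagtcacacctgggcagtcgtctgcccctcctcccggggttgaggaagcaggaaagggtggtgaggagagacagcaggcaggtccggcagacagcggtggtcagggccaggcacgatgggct
Absence of these letters from a window says nothing of Foxi1 elsewhere.

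Members were also divided by depth. Of the 119, 79 held at most 8000 UMIs (33 and 46 in libraries 1 and 2) and 40 held more (10 and 30). The division was made after seeing the data and marks no natural break. No member lay between 7913 and 8660 UMIs, but the step from 10597 to 11629 was wider. Excluded barcodes lay within the range, at 7940, 8014, 8057 and 8228 UMIs. Marker lists of other classes moved in both directions. The 6 markers of respiratory secretory cells summed to 23889.8 CPM in the deeper cells and 443 in the shallower members. The 8 sustentacular markers summed to 6095 and 1093. This list holds Cyp2g1 and Cyp2a5, and the mature OSN list below holds Omp, all limited by the rule. The sums of both lists are therefore set in part by the choice of members. Markers of ciliated cells summed to 1011 and 18.5 CPM, but 8 of 40 deep members held 3 or more of these UMIs and 1 cell held 231. Other lists summed higher in the shallower members: neutrophil markers at 8372 CPM against 263 in deep ones and macrophage markers at 3549.7 against 2649.8. Trpm5-class markers were at 409 against 205, mature OSN markers at 190.0 against 98.5 and B lineage markers at 143 against 109. Few cells made up some of these sums. For neutrophil markers 1 shallower member held 2424 UMIs, and 3 of 79 held 3 or more. For B lineage markers 1 shallower member held 28 UMIs, and shallower members of library 1 were at 0 CPM. For macrophage markers, 13 of 79 shallower and 20 of 40 deep members held 3 or more UMIs. These counts were 16 and 18 for Trpm5-class and 7 and 9 for mature OSN markers. Coch was at 1566 CPM in deep and 6838 in shallower members. Deep cells were 23.3% of members in library 1 (11.8 to 38.6) and 39.5% in library 2 (28.4 to 51.4), against 24.1% and 24.6% of kept cells. Of the 362 excluded barcodes, 15 exceeded 8000 UMIs, and over all 362 the secretory and sustentacular sums were 3606 and 1933 CPM. Whether deep members are doublets was not tested. Of all members, 103 held 3 or more UMIs of at least 1 marker list of another class. For the sustentacular list alone, 84 members and 225 of the 362 excluded barcodes did. That list summed to 4402 CPM in members against 12455 in other kept cells.

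Single cells also weighed on immune genes. Lyz2, a lysozyme of macrophages and glands, had 50 or more UMIs in 14 members, and 3 cells held 39.3% of its UMIs in members. In the 5 shallower ones among them, Lyz2 ran from 51 to 577 UMIs while 5 other macrophage genes summed to 2 UMIs. The neutrophil list summed to 11.9 CPM in members of library 1 and 4286 in library 2, and in 2 shallower members S100a8 and S100a9 together came to 100 UMIs or more. Mast cell markers were at 0 in all members, and of 5 endothelial markers 2 were at 0.

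**Figure D4:**
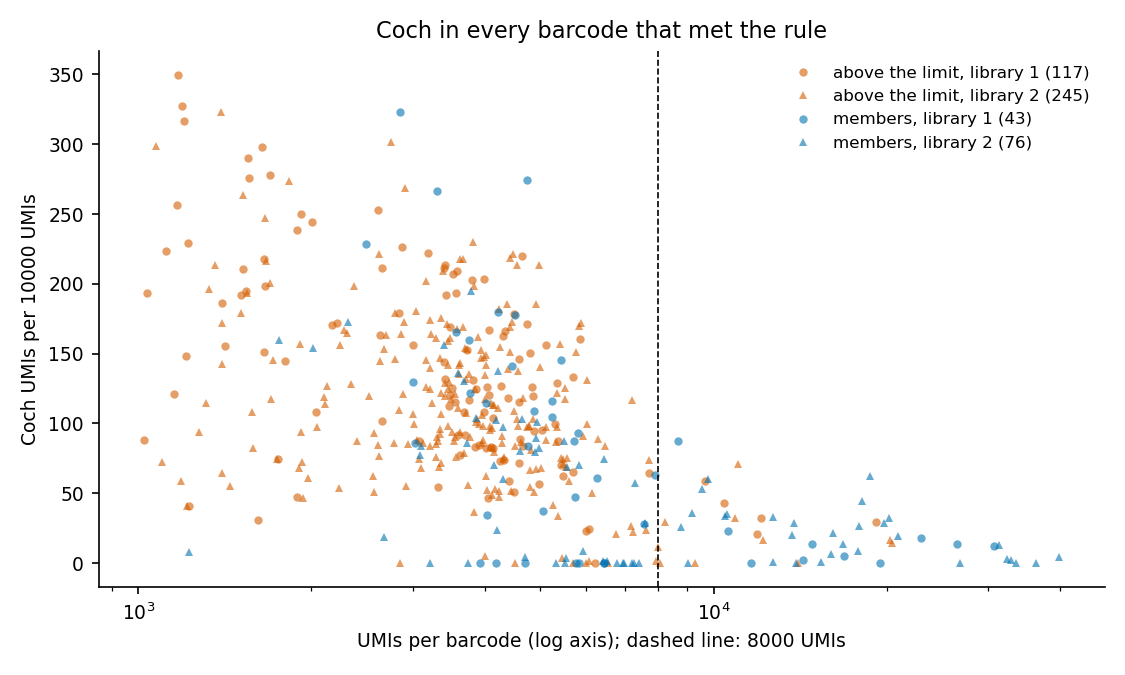
Coch UMIs per 10000 UMIs against UMIs per barcode (log axis) for every barcode that met the rule, members and those above the mitochondrial limit, with circles for library 1 and triangles for library 2. Members reach 323 per 10000; beyond 8000 UMIs (dashed line) they stay at or below 87.8, and a row of members lies at 0.

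Shallower members fell into cells with much Coch and cells with none. Of 79, 52 held 20 or more Coch UMIs (median 46, at most 130), 10 held 1 to 19 and 17 held none, 7 of 33 in library 1 and 10 of 46 in library 2. The 17 were no shallower, with a median of 5822 UMIs against 4382.5 in the 52. They kept the rest of the signature at lower levels: Stap1 was at 1153 and 778 CPM in libraries 1 and 2 against 2796 and 2806 CPM in the cells rich in Coch, and Moxd1 at 295 and 414 CPM against 1104 and 1044 CPM. The split was made on Coch after seeing the data, so what follows describes these cells and carries no test.

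Among 169 genes higher in the cells rich in Coch, the few named here were picked after their values were seen. Scnn1b, Scnn1g and Igfbp7, an insulin-like growth factor binding protein, had no UMI in the 17 cells, while Scnn1b was at 383 and 375 CPM and Igfbp7 at 579 and 522 CPM in the 52. Against the limit that 3 counts in a library set, Scnn1b was at least 4.76-fold and at least 7.55-fold higher there in libraries 1 and 2, and Scnn1g at least 5.09-fold and 4.43-fold. Wfdc2, a secreted protein of airway epithelium, was at 4069.6 and 3352 CPM against 215 and 248 CPM.

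In the 17 cells 146 genes were higher, and single cells weighed on several of them. Rgs13, a regulator of G protein signalling, had no UMI in the 52 and a UMI in 8 of the 17, at 1126 and 1258 CPM in libraries 1 and 2, but 1 cell held 41 of its 42 UMIs in library 1 and 1 cell 47 of 76 in library 2. Trpm5-type cells had it at 1318 CPM. Cdkn1c, a cell cycle inhibitor, was at 536 and 1324 CPM against 44.5 and 73.4 CPM, Drd4, a dopamine receptor, at 295 and 232 CPM against 0 and 16.3 CPM with 10 of 11 UMIs of library 1 in 1 cell, and Penk, the enkephalin precursor, at 349 and 215 CPM against 26.7 and 8.16 CPM. Sct, the hormone secretin, was at 107 and 612 CPM against 8.91 and 0 CPM and at 243 CPM in Trpm5-type cells. Trpm5 and Avil had no UMI in the 17 cells, and Pou2f3, the tuft cell factor, was seen in 2. Dcn, a fibroblast proteoglycan, was at 1260.3 and 447 CPM against 80.1 and 0 CPM, and the part of RNA from other cells in this was not tested. Above the mitochondrial limit, 6 of 347 shallower barcodes held no Coch, and Rgs13 was seen in 2 of 362.

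**Figure D5:**
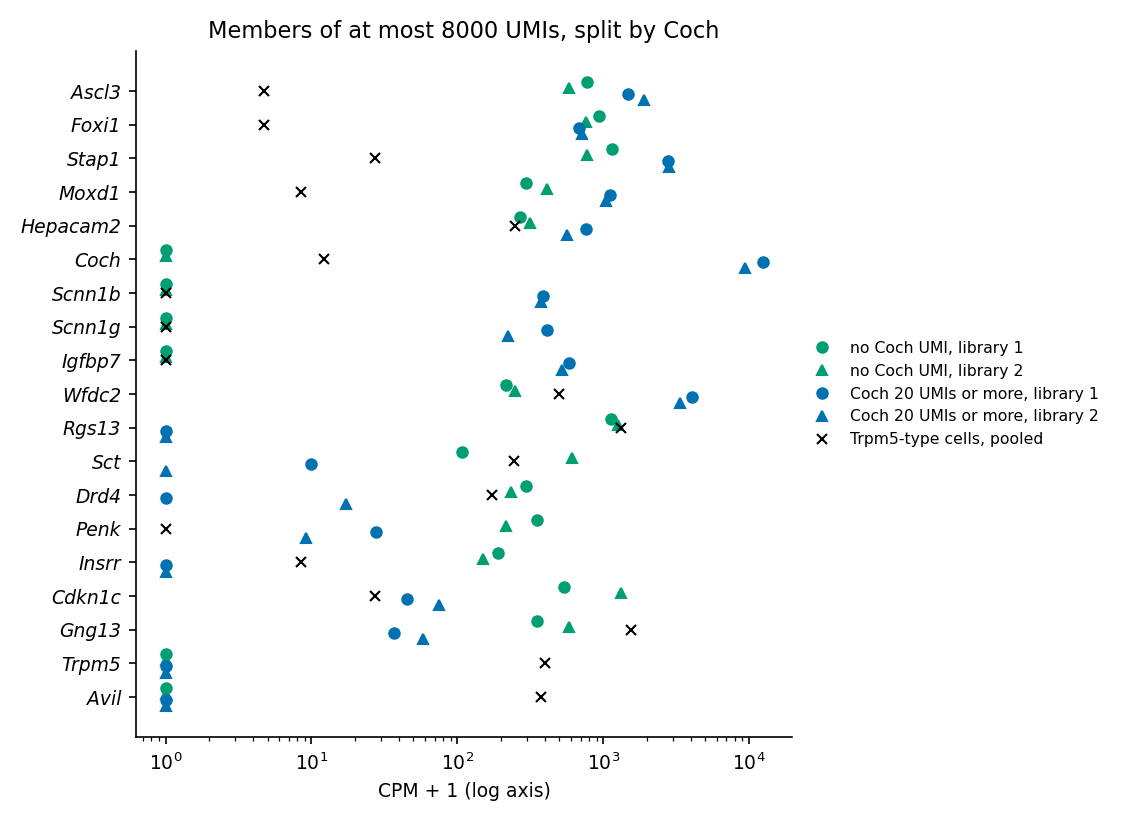
Levels of 19 genes as CPM + 1 on a log axis in members of at most 8000 UMIs, split into 17 cells with no Coch UMI (green) and 52 with 20 or more (blue), by library, beside Trpm5-type cells pooled over libraries (crosses). Rgs13 lies at 1126 and 1258 CPM in the cells without Coch, where 1 cell holds 41 of 42 UMIs in library 1 and 1 cell 47 of 76 in library 2, and at 0 in those rich in it, while Scnn1b and Scnn1g show the opposite.

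Set beside the tuft-like class, few of the marker genes were shared. In 42 Trpm5-type cells Hepacam2 was at 247 CPM, within the range of 418 and 224 CPM in members. Coch was at 11.2 CPM there, Stap1 at 26.2 and Pam at 97.3, and Bsnd, Foxi2, Scnn1b and Scnn1g were at 0. In sustentacular-type cells, Tfcp2l1 was at 30.1 CPM and Scnn1a at 59. With 1 animal no test of these differences was possible.

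The share of members was alike in the libraries, at 1.42% (1.03 to 1.91) in library 1 and 1.44% (1.14 to 1.80) in library 2. Without the mitochondrial limit it was 3.94% (3.36 to 4.59) and 4.43% (3.96 to 4.92), and the intervals again overlapped. In members of at most 8000 UMIs it was 1.09% (0.750 to 1.53) and 0.874% (0.640 to 1.16).

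The count of genes that differ between the libraries moves with the UMIs summed, so the sets are not compared. Of 10175 genes with 10 CPM or more in the higher library, 889 were 2-fold or more higher in library 2 (8.74%) and 960 in library 1 (9.43%). Without the mitochondrial limit the counts were 351 of 9795 (3.58%) and 336 (3.43%). Over all measured genes, the median log2 ratio of library 2 over library 1 was -0.064 in members and -0.056 in members of at most 8000 UMIs. The share of all genes lower in library 2 is not given here. The 25 leading genes were lower in library 2 in 22 cases, with a median log2 ratio of -0.61 (library 2 over library 1), -0.26 in members of at most 8000 UMIs and -0.13 in the excluded barcodes. Members over 8000 UMIs were 23.3% of members in library 1 and 39.5% in library 2, with intervals that overlapped, and the respiratory secretory markers summed to 21965 and 13389 CPM; their part in this was not tested. Coch was at 4986 CPM (4750.0 to 5231) in library 1 and 2651 CPM (2538 to 2767) in library 2 in members, a log2 ratio of -0.91, and at 11479.8 and 9673 CPM in the excluded barcodes, a ratio of -0.25. Scnn1g was past 2-fold, at -1.26 in members, and at -0.13 in the excluded barcodes.

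The largest library differences that were spread over cells were named by a fixed rule, 8 in each direction. Higher in library 1 were Adgrb1, an adhesion G protein-coupled receptor, at 116 CPM (82.8 to 159) in library 1 and 33.1 CPM (21.6 to 48.6) in library 2, with Tmem52, Tmem38a, Pnrc2, Scnn1g, Rad21 and Creb1 among the others. Higher in library 2 were Cldn4, a tight junction claudin, at 23.9 CPM (10.3 to 47) in library 1 and 108 CPM (86.5 to 134) in library 2, and Rpl9-ps6, Akr1b3, Thra, Dmrta2, Phtf1, Ak3 and Timp3. Without the mitochondrial limit, Tmem38a alone of the first 8 and Rpl9-ps6 and Timp3 of the second 8 remained past 2-fold. Within members of at most 8000 UMIs, 4 of the first 8 and 6 of the second 8 were past it, Rpl9-ps6 with a log2 ratio (library 2 over library 1) of 2.13, while Tmem38a was at -0.47 and Timp3 turned to -0.46. For Adgrb1 the excluded barcodes had 215 and 183 CPM in libraries 1 and 2, and for Cldn4 60.5 and 34 CPM, in the opposite order to members. Fxyd2, a sodium pump modulator, was at 8.95 and 107 CPM in members and 31.4 and 212 CPM in the excluded barcodes, but 3 cells held 84.5% of its UMIs in members of library 2 and it was seen in 12 members. Of the fixed lists, 17 ionocyte markers could be compared, 3 were higher in library 1 and none in library 2, and without the limit 1 was.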

How the data were processed

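Single-cell RNA-seq (10x Chromium 3' v3) of 1 mouse gave 2 libraries, 1 per side of the olfactory epithelium. The deposited matrix holds UMI counts made by the authors for 31053 genes; Cell Ranger 3.0.2 and mm10 are named per the submitters' processing notes. Depth equalisation between libraries, read filters and doublet removal are not given in the sources used here. For doublets, no caller was run; members with other-class markers and members over 8000 UMIs were left out as alternatives instead.

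UMIs were summed over members and over other kept cells of each library and scaled to CPM. Ratios are log2 after adding 1 CPM, so the change of low genes is understated. A gene was called at 2-fold in both libraries, among genes at 10 CPM or more. With 1 library per side there is no replicate, and no p-value is given. Exact Poisson and binomial 95% intervals cover counting error only. A count of 0 is set against a limit of 3 counts.

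The text names members of the gene lists, the 25 largest ratios (at least 50 CPM in members and a UMI in 10% of members of each library), the 10 lowest (at least 200 CPM in other kept cells), and the 8 largest library ratios each way that were spread over cells. Some genes that the rule or the lists name are not reported here. Genes of the cells with and without Coch were chosen after their values were seen. The member rule and the gene lists were chosen with earlier results of these data known. The analysis without a mitochondrial limit, the division at 8000 UMIs, the division by Coch, the neighbour pairs, and the comparison without cells that met only the first part of the rule were added after seeing the data. Gene positions came from GENCODE M21, which matched 31011 of the gene identifiers, and promoters from RefSeq. Scripts ran in Python 3.11.15 with numpy 2.4.6, pandas 2.3.3, scipy 1.17.1 and matplotlib 3.10.9 and were tested on simulated data.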

Additional observations from a re-analysis of the deposited data

Results flagged for a closer look

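For secreted peptides and growth factors, the median log2 ratio of members over other kept cells was -0.46 in library 1 and 0.22 in library 2. The signs were opposite, and the difference between the libraries was not tested. Of its 13 measured genes, 2 were called higher and 4 lower in both libraries. The median ratio of library 2 over library 1 for this list was 0.32 in all members and -0.45 in members of at most 8000 UMIs, where 3 genes were 2-fold higher in library 2 and 5 in library 1, so its direction turned without the deeper cells.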

How the results depend on the processing

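With no cell filter, members were 3.60% and 4.09% of cells in libraries 1 and 2, and 351 and 333 genes were 2-fold higher in library 2 and in library 1. Without the mitochondrial limit the shares were 3.94% and 4.43% and the counts 351 and 336. At most 5% mitochondrial UMIs left 6 members, with shares of 0.316% and 0.0891%, 2675 genes called lower, and 1858 and 6644 genes higher in library 2 and library 1; there Atp6v0d2 (-1.68) turned negative over other cells, as did the library ratios of Cldn4 (-6.00), Akr1b3 (-4.07), Thra (-5.02), Phtf1 (-6.32) and Ak3 (-5.02) and the carbonic anhydrase median (-6.00). Requiring all 3 rule genes gave 0.930% in library 2. Without exclusion genes the shares were 1.98% and 1.99%, with 290 genes higher, 428 and 575 by library, and a carbonic anhydrase median of 0.45. Leaving out members with another class list kept 16, with shares of 0.231% and 0.171%, 848 genes higher, 3087 lower, 2513 and 2450 by library, and Phtf1 at -0.16. In members of at most 8000 UMIs, 757 were higher and 1520 lower, 1575 and 1490 by library, the share in library 2 was 0.874%, the carbonic anhydrase library median was -4.32 and Timp3 was -0.46. Adding 10 CPM gave 257 higher, 463 lower, 410 and 379 by library. Weighting each cell equally gave 1373 lower. No minimum CPM gave 1982 lower, 3257 and 1839 by library, and a carbonic anhydrase library median of -0.33. Thinning members gave 2120 and 2149 by library. Against sustentacular-type cells 1034 were higher and 528 lower, with a carbonic anhydrase median of 2.21. Thinning to 1000 UMIs gave 68.9% for Stap1. The motif TGTTTGC gave 7.68%. The cause was not tested. No paired analysis was possible because each side has 1 library. Counts of library differences rest on few UMIs per gene in 119 cells.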
